A study of Mus musculus with 6 samples.

Results

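The 8 genes described here are Rgs1, Rgs2, Rgs3, Rgs10, Rgs14, Rgs16, Rgs18 and Rgs19, which encode regulators of G protein signalling. They were chosen by gene symbol from a count table of 50686 genes, each symbol had 1 row, and all 8 were among the 15458 genes tested. The RNA came from splenic natural killer (NK) cells of C57BL/6J mice, in 3 samples from healthy wild type mice (WT) and 3 from mice given Eumyc lymphoma intravenously (Eumyc), with spleens collected on day 14 of the experiment. The Eumyc tumour is a transplantable lymphoma of B cells that overexpress Myc. The labels gave no age and did not tie the samples to individual animals. The p-values therefore reflect sample-to-sample spread that could be technical. All samples were depleted of B cells, enriched with CD49b beads and sorted as NK1.1-positive cells without the T cell receptor beta chain. For Eumyc the sort took both the bead-bound and the unbound cells, so the lymphoma and this step cannot be told apart in any difference below.

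Receptors coupled to G proteins, such as those for chemokines and sphingosine 1-phosphate, act by loading GTP onto a G alpha subunit and freeing the beta-gamma pair. RGS proteins share a domain that speeds up GTP hydrolysis by G alpha, which shortens the signal and lets the heterotrimer form again. In lymphocytes they are known for tuning chemokine-guided migration. Rgs1, Rgs2, Rgs3, Rgs16 and Rgs18 belong to the small-protein branch of the family, Rgs10 and Rgs14 to the branch of Rgs12, and Rgs19, also called GAIP, to the branch of Rgs17 and Rgs20.

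NK cell markers were abundant in every library, with a summed level of 14200 to 15900 CPM (counts scaled to library size, the usual per-million unit) over 13 genes, of which 2 were called higher in Eumyc, 7 lower and 4 not called (median log2 fold change -0.28). Libraries held 16407611 to 36534191 gene counts in WT and 44456157 to 66615602 in Eumyc. The RGS genes had between 26 and 18241 counts per library. Other cell types' transcripts were present too. Single genes made up much of each list's sum, so each sum is given without the list's most abundant gene, a choice made after seeing the data. Monocyte and macrophage markers (9 of 13 higher in Eumyc, 0 lower) summed to 143 to 162 CPM in WT and 521 to 1190 CPM in Eumyc without Ccr2, and to 947 to 1050 and 1530 to 2220 CPM with it. Neutrophil markers (9 of 10 higher, 0 lower) summed to 1.0 to 4.25 and 45.8 to 60.4 CPM without Csf3r, and B cell markers (9 of 10 higher, 0 lower) to 4.83 to 5.57 and 16 to 19.6 CPM without Cd22. Dendritic cell markers (4 of 8 higher, 0 lower) summed to 3.23 to 3.93 and 11.3 to 13.1 CPM without Zbtb46, which was not called. T cell markers (4 of 12 higher, 0 lower) summed to 128 to 133 and 225 to 285 CPM without Trbc1, which was not called, and erythroid markers (7 of 8 higher, 0 lower) to 11.1 to 30.9 and 50.7 to 57.9 CPM without Car2. With those genes kept, the WT and Eumyc sums were 374 to 405 and 488 to 534 CPM for T cells. They were 154 to 186 and 415 to 492 CPM for erythroid cells, and 12.1 to 15.3 and 19 to 22.4 CPM for dendritic cells. For neutrophils they were 4.08 to 6.35 and 60.7 to 88.9 CPM, and for B cells 16.6 to 19.7 and 52.5 to 59.4 CPM. Basophil and mast cell markers (2 of 7 tested higher, 1 lower) summed to 158 to 217 CPM in WT and 151 to 168 CPM in Eumyc. Without Cma1, which was not called, they summed to 4.68 to 7.39 and 4.26 to 13.8 CPM. Elane of neutrophils and Siglech of dendritic cells were at 0 in all 3 WT libraries. The part of these cells in the RGS results was not tested, and in bulk RNA more cells of a type and more RNA per cell cannot be told apart.

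Of the 8 RGS genes, 3 rose in Eumyc (Rgs16, Rgs10 and Rgs1), 1 fell (Rgs14) and 4 did not pass the test (Rgs2, Rgs3, Rgs18 and Rgs19). The test was edgeR's quasi-likelihood test, and a gene was called at a Benjamini-Hochberg adjusted p under 0.05 over all tested genes. By the same rule 48.8% of all tested genes were called, 25.7% higher and 23.1% lower, so a call for 4 of 8 genes is near the share over all genes. The median log2 fold change was 0.03 for the 8 genes, beside -0.005 for all tested genes. The WT and Eumyc values did not overlap for 6 of the 8 genes, beside 60.2% of all tested genes.

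**Figure D1:**
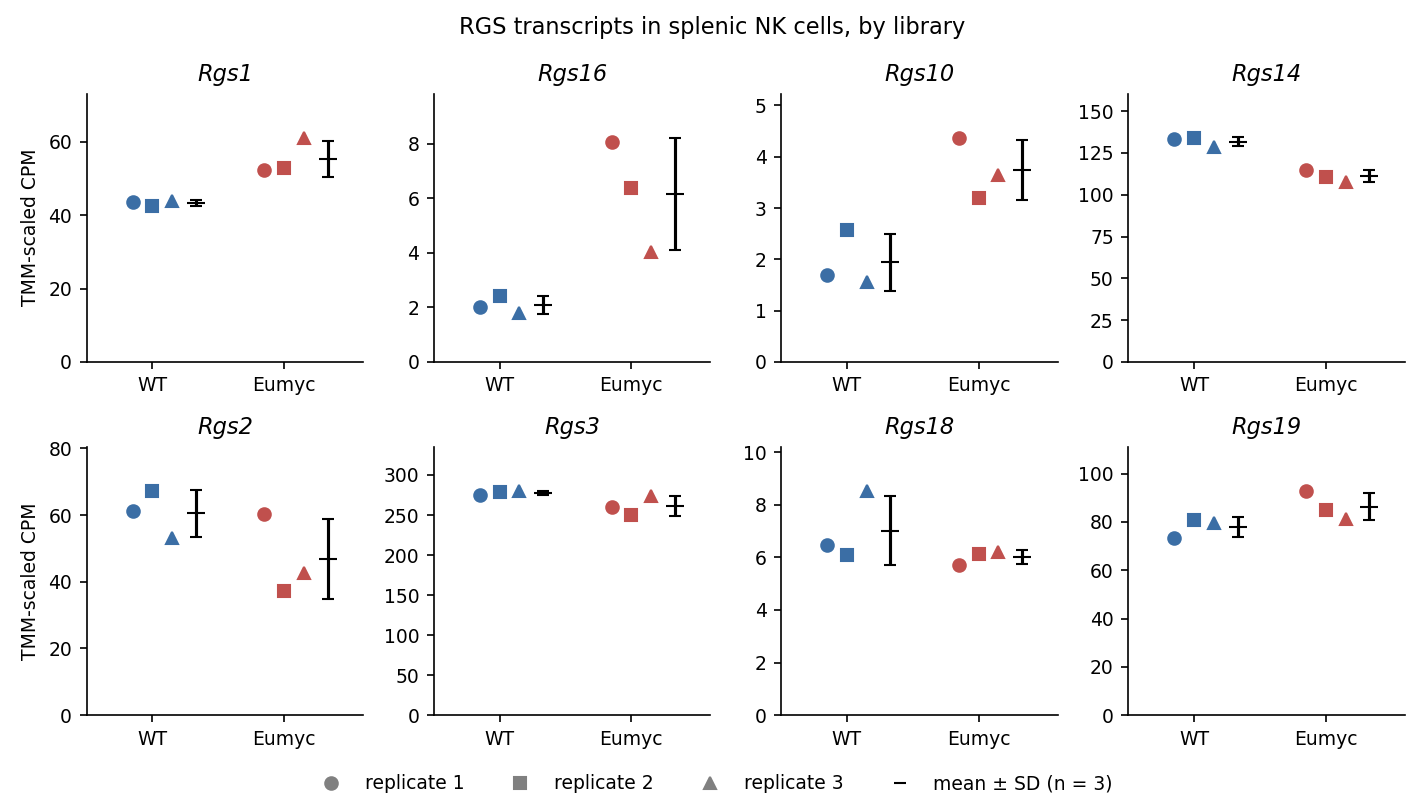
TMM-scaled CPM (vertical axes, from 0) of the 8 RGS genes in each WT and Eumyc library, with mean ± SD over 3 libraries beside the points. The 3 Eumyc libraries lie above the 3 WT libraries for Rgs1, Rgs16, Rgs10 and Rgs19 and below them for Rgs14 and Rgs3, while the groups overlap for Rgs2 and Rgs18.

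Sequences upstream of a RefSeq start of transcription are shown first for 3 of these genes. They are the most raised gene (Rgs16), the gene with the most negative fold change, which did not pass the test (Rgs2), and the second most raised (Rgs10). Each is the 250 bases before the RefSeq start of transcription on GRCm38.p6, read 5′ to 3′ on the gene's strand, and RefSeq windows matched 5 of the 8 genes. The Rgs10 window lies inside the annotated span of that gene, which has its 5′ end at 128418758. Capitals mark matches to the motifs searched.
Rgs16 (chr1:153740103-153740352, plus strand): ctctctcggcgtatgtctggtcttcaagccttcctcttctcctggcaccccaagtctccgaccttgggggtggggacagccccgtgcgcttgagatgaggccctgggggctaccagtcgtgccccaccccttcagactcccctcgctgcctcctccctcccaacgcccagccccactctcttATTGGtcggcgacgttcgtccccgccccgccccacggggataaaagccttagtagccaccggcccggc
Rgs2 (chr1:144004150-144004399, minus strand): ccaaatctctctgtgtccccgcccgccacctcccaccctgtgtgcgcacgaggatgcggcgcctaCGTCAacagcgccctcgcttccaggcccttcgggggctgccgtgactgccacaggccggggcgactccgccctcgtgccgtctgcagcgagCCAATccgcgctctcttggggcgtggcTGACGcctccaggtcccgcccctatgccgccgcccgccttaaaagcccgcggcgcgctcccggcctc
Rgs10 (chr7:128418173-128418422, minus strand): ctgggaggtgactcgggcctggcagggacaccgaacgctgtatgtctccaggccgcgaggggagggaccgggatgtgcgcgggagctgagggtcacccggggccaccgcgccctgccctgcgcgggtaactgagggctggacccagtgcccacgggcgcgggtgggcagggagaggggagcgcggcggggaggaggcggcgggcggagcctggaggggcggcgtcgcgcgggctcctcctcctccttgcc

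On both strands, 7 motifs were searched. They were the cAMP response element TGACGTCA and its core TGACG, which is part of the full element, the AP-1 site TGANTCA, the E-box CACGTG, the EGR site GCGTGGGCG, the CCAAT box CCAAT and the TATA core TATAAA. The Rgs2 window held TGACG on 2 occasions, 67 bases before the start on the gene's strand and 185 bases before it on the other. At least 1 TGACG stood in 17.8% of all 32851 RefSeq windows of this length, and at least 2 in 3.90%. The windows behind these and the later shares were not matched for G and C content. Rgs2 and Rgs16 each held 1 CCAAT box, at 94 and 68 bases before the start, as did 33.8% of windows. The Rgs10 window, which lies inside the annotated gene span, had no match to any of the 7. The full cAMP element, AP-1, E-box and EGR motifs had no match in the 3 windows. These motifs stood in 1.55%, 6.75%, 6.02% and 0.536% of all windows. The 3 windows were rich in G and C, with 66.4% in Rgs16, 72.4% in Rgs2 and 76.4% in Rgs10 beside a median of 52.4%. The windows not shown had 48.4% and 56.8% in Rgs3 and 54.4%, 64.8% and 74.8% in Rgs19. TATAAA stood in the Rgs3 windows, in 12.4% of all windows and in none of the 3 shown. A match is a run of letters and no evidence of binding.

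Rgs16, which acts on Gi and Gq and is induced when lymphocytes are activated, had the largest change. Its level was 2.02, 2.43 and 1.80 CPM in WT 1, 2 and 3 and 8.07, 6.39 and 4.02 CPM in Eumyc 1, 2 and 3. All 3 Eumyc libraries were above all 3 WT libraries, and they differed among themselves, with Eumyc 1 the highest and Eumyc 3 the lowest. Rgs16 rose 2.91-fold, from 2.08 ± 0.323 to 6.16 ± 2.04 CPM (SD, n = 3 each), a log2 fold change of 1.54 ± 0.28 (SE) with an edgeR adjusted p of 0.00254. Of all tested genes, 9.06% had a log2 fold change at least as large in size. These WT values rest on 56, 90 and 30 counts. Rgs16 (ENSMUSG00000026475) lies on chromosome 1 from 153740349 to 153745468 on the plus strand of GRCm38.

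Rgs1, a brake on chemokine receptor signalling through Gi in lymphocytes, changed less but with little spread in WT. It stood at 43.7, 42.5 and 44.0 CPM in WT 1, 2 and 3 and at 52.2, 52.8 and 60.9 CPM in Eumyc 1, 2 and 3. The groups did not overlap, and the highest library was Eumyc 3, the one that was lowest for Rgs16. Rgs1 rose 1.28-fold, from 43.4 ± 0.777 to 55.3 ± 4.87 CPM (SD, n = 3 each), a log2 fold change of 0.35 ± 0.08 (SE, edgeR adjusted p = 0.00658). A log2 fold change of this size or larger was seen in 52.0% of tested genes.

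Rgs2, which acts mainly on Gq, did not pass the test, and its Eumyc libraries disagreed. WT 1, 2 and 3 had 61.3, 67.1 and 53.2 CPM, and Eumyc 1, 2 and 3 had 60.3, 37.2 and 42.8 CPM. Eumyc 1 lay within the WT range, while Eumyc 2 and Eumyc 3 lay below it. The means were 60.5 ± 7.0 and 46.8 ± 12.1 CPM (SD, n = 3 each), with a log2 fold change of -0.38 ± 0.17 (SE, edgeR adjusted p = 0.0986). Without Eumyc 1 the gene was called lower (log2 fold change -0.58, edgeR adjusted p = 0.00709), and with the replicate number as a block it was also called (-0.40, adjusted p = 0.0483). These were the only 2 of 15 alternatives that called Rgs2, with log2 fold changes of -0.58 to -0.22 over all 15. In the authors' deposited table Rgs2 had a log2 fold change of -0.36 and an adjusted p of 0.0464.

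Eumyc 1 was also the library with the most monocyte and macrophage transcripts, at 1190 CPM without Ccr2 beside 521 and 697 CPM in Eumyc 2 and 3 (2220, 1530 and 1590 CPM with it), and 10 of the 13 markers were higher in it than in the mean of the other two. Relative to that mean, Eumyc 1 was higher for Rgs2 by 0.59, for Rgs16 by 0.64 and for Rgs10 by 0.35 on the log2 scale, and the difference was -0.12 for Rgs1 and Rgs18, -0.01 for Rgs3, 0.07 for Rgs14 and 0.15 for Rgs19. Immediate early genes, which respond within minutes to stimulation or cell handling, were likewise unequal between the groups, with 11 of 20 lower and 6 higher in Eumyc and a median log2 fold change of -0.54. Their summed level was 2400 to 2580 CPM in WT and 2230, 1960 and 1700 CPM in Eumyc 1, 2 and 3. Klf2, named after its values were seen, held 727 to 824 CPM of it in WT and 445 to 599 CPM in Eumyc. Single genes went both ways, from -2.91 for Fos to 3.53 for Klf4 on the log2 scale. The part of the monocyte and macrophage transcripts or of the immediate early genes in the RGS values was not tested.

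Rgs3, which acts on Gi and Gq and is made in several isoforms, had the most counts of the 8 genes. Its level was 275, 279 and 279 CPM in WT 1, 2 and 3 and 260, 250 and 274 CPM in Eumyc 1, 2 and 3. All Eumyc libraries were below all WT libraries, though Eumyc 3 came within 1 CPM of WT 1. The log2 fold change was -0.09 ± 0.05 (SE) and did not pass (edgeR adjusted p = 0.213). Rgs18, best known from platelets and their precursors, was at 6.46, 6.08 and 8.50 CPM in WT 1, 2 and 3 and at 5.70, 6.14 and 6.21 CPM in Eumyc 1, 2 and 3. The groups overlapped, WT 3 was the highest library, and the log2 fold change of -0.21 ± 0.16 (SE) did not pass (edgeR adjusted p = 0.307). Without WT 3 it was -0.05, and with all libraries thinned to equal depth in a single random draw it was -0.38, neither of them called. Platelet and megakaryocyte markers (1 of 6 tested higher, 3 lower) summed to 15 to 23.1 CPM in WT and 13.2 to 13.5 CPM in Eumyc, or 5.99 to 10 and 5.65 to 6.78 CPM without Gp1bb, and Treml1 was at 0 in every WT library. WT 3, the highest library for Rgs18, had the lowest platelet sum of the WT group, and the part of platelets was not tested.

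Rgs10 and Rgs14, from the branch of the family that also holds Rgs12, went in opposite directions. Rgs10, a short protein made of little more than the RGS domain, stood at 1.70, 2.57 and 1.56 CPM in WT 1, 2 and 3 and at 4.36, 3.20 and 3.64 CPM in Eumyc 1, 2 and 3. The groups did not overlap, although WT 2 came near Eumyc 2. Rgs10 rose from 1.94 ± 0.549 to 3.73 ± 0.586 CPM (SD, n = 3 each), a log2 fold change of 0.91 ± 0.24 (SE, edgeR adjusted p = 0.0149), on 26 to 95 counts per WT library. Leaving out WT 1 ended the call (0.83 on the log2 scale, edgeR adjusted p = 0.0571). The call also ended when all libraries were thinned to equal depth in a single random draw (0.70, edgeR adjusted p = 0.0950).

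Rgs14, which binds G alpha at both its RGS domain and a GoLoco motif and also binds small GTPases of the Ras family, was at 133, 134 and 129 CPM in WT 1, 2 and 3. In Eumyc 1, 2 and 3 it was at 115, 111 and 108 CPM. The groups were tight and did not overlap. Rgs14 fell by 15.8% on the fitted scale, from 132 ± 2.84 to 111 ± 3.51 CPM (SD, n = 3 each), with a log2 fold change of -0.25 ± 0.05 (SE, edgeR adjusted p = 0.00468). Changes at least this large were found in 63.9% of tested genes.

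Rgs19, which acts on Gi and related subunits, stood at 73.2, 80.8 and 79.5 CPM in WT 1, 2 and 3 and at 92.6, 85 and 81.4 CPM in Eumyc 1, 2 and 3. All Eumyc libraries were above all WT libraries, but Eumyc 3 exceeded WT 2 by less than the spread within either group. The means were 77.8 ± 4.08 and 86.3 ± 5.73 CPM (SD, n = 3 each), and the log2 fold change of 0.15 ± 0.07 (SE) did not pass (edgeR adjusted p = 0.106).

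The authors' deposited table lists all 8 genes, and 5 have an adjusted p under 0.05 there, beside 59.9% of the 10288 genes with such a value. They are Rgs16 (log2 fold change 1.30), Rgs10 (0.78), Rgs1 (0.34), Rgs14 (-0.26) and Rgs2. The first 4 are also the genes called by edgeR here, with the same directions.

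**Figure D2:**
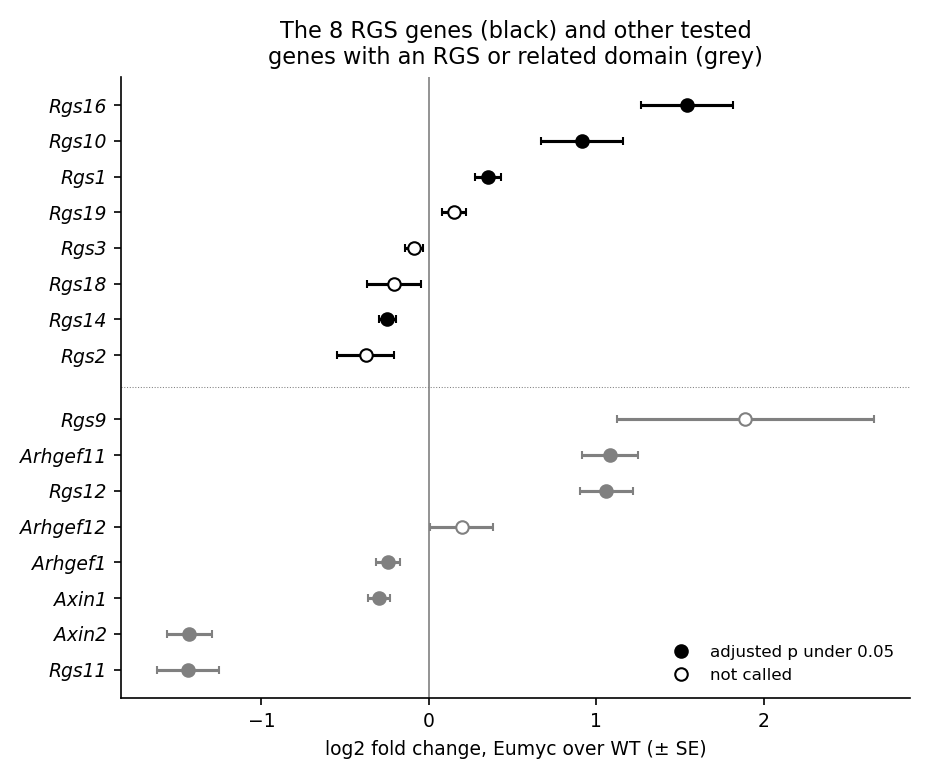
Log2 fold change of Eumyc over WT with its SE (horizontal axis) for the 8 RGS genes (black) and the 8 other tested genes with an RGS or RGS-like domain (grey), filled where the adjusted p is under 0.05. Rgs16 at 1.54 and Rgs10 at 0.91 stand to the right among the 8, and Rgs11 and Axin2 at -1.44 and -1.43 stand to the left among the others.

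Other genes of the family changed in both directions. Of 13 further genes with an Rgs symbol, 10 were too low to test, with at most 11 counts each over all 6 libraries, and 5 of them had 0 counts. Rgs12, the multidomain relative of Rgs10 and Rgs14, rose from 8.12 ± 0.498 to 17 ± 3.46 CPM (SD, n = 3 each), a log2 fold change of 1.06 ± 0.16 (SE, edgeR adjusted p = 0.00106). Rgs11, which is known mainly from neurons and is named here after its values were seen, fell by 1.44 on the log2 scale (SE 0.18, edgeR adjusted p = 0.000577), from 5.25 ± 0.653 to 1.93 ± 0.193 CPM (SD, n = 3 each). Rgs9 was not called (adjusted p = 0.0708). Among genes with a related domain, Axin2, a feedback inhibitor of Wnt signalling, fell by 1.43 (SE 0.13) and Axin1 by 0.30 (SE 0.06) on the log2 scale. In all, 2 of the 8 tested genes of this list were higher and 4 lower, with a median log2 fold change of -0.02.

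Per length, the order of the 8 genes was nearly the same in both groups. Levels were taken as CPM per kilobase of exon, and in WT they fell from Rgs19 (34.9 ± 1.83) and Rgs14 (31.1 ± 0.669) through Rgs3 (25.7 ± 0.207), Rgs2 (16.7 ± 1.93), Rgs1 (6.24 ± 0.112) and Rgs18 (3.45 ± 0.642) to Rgs10 (1.13 ± 0.321) and Rgs16 (0.890 ± 0.138), each with its SD over 3 libraries. Only Rgs10 and Rgs16 had overlapping ranges as neighbours in WT. In Eumyc, Rgs19 stood at 38.7 ± 2.57, Rgs14 at 26.2 ± 0.827, Rgs3 at 24.2 ± 1.15, Rgs2 at 12.9 ± 3.32 and Rgs1 at 7.96 ± 0.702 CPM per kilobase. They were followed by Rgs18 at 2.96 ± 0.137, Rgs16 at 2.63 ± 0.872 and Rgs10 at 2.18 ± 0.342. In this group Rgs14 and Rgs3, Rgs18 and Rgs16, and Rgs16 and Rgs10 did not differ beyond their ranges.

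**Figure D3:**
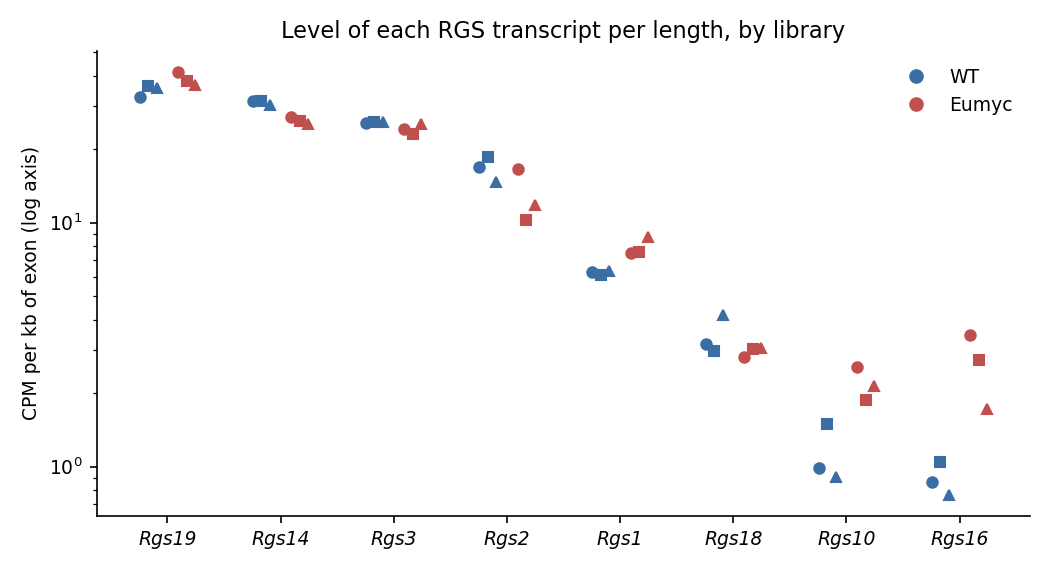
CPM per kilobase of exon (vertical log axis) of the 8 RGS genes in each WT and Eumyc library, with marker shapes for replicates 1, 2 and 3 (circle, square, triangle), in the order of the WT means. Rgs19, Rgs14 and Rgs3 are above 20 in every library, and Rgs10 and Rgs16 are the 2 lowest genes in WT, with Rgs16 between 1.72 and 3.45 in Eumyc.

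The summed level of the 8 genes was 120 ± 3.18 CPM per kilobase in WT and 118 ± 6.87 in Eumyc (SD, n = 3 each), a difference smaller than the spread between libraries (two-sided exact permutation test, p = 0.6, where the smallest possible p is 0.1). Rgs19 made up 29.0% ± 1.12 of the sum in WT and 32.9% ± 1.00 in Eumyc, and Rgs14 made up 25.9% ± 0.636 and 22.3% ± 0.828. The share of Rgs16 was 0.740% ± 0.0969 and 2.22% ± 0.649 (SD, n = 3 for each share). These levels depend on the length used. With the median length of coding transcripts in place of all exons, Rgs3 came first in both groups, at 71.4 CPM per kilobase in WT and 67.2 in Eumyc, and Rgs10 passed Rgs18 in Eumyc. The share of Rgs16 was then 0.373% in WT and 1.13% in Eumyc.

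The genes lie partly in a cluster. Rgs2, Rgs1 and Rgs18 sit within 776 kb of chromosome 1, all on the minus strand, with Rgs13 and Rgs21 between them, and these 5 are the protein-coding genes of the interval. Rgs2 (ENSMUSG00000026360) spans 143999338 to 144004161, Rgs1 (ENSMUSG00000026358) 144242296 to 144249242 and Rgs18 (ENSMUSG00000026357) 144752683 to 144775435 on GRCm38. Within the cluster only Rgs1 was called, while Rgs2 and Rgs18 had negative log2 fold changes that did not pass. Rgs13, a gene of germinal centre B cells, had 0 counts in WT and 3 in Eumyc, all 3 in 1 library, and Rgs21 had 0 in every library. Rgs16 lies 8.96 Mb further along.

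**Figure D4:**
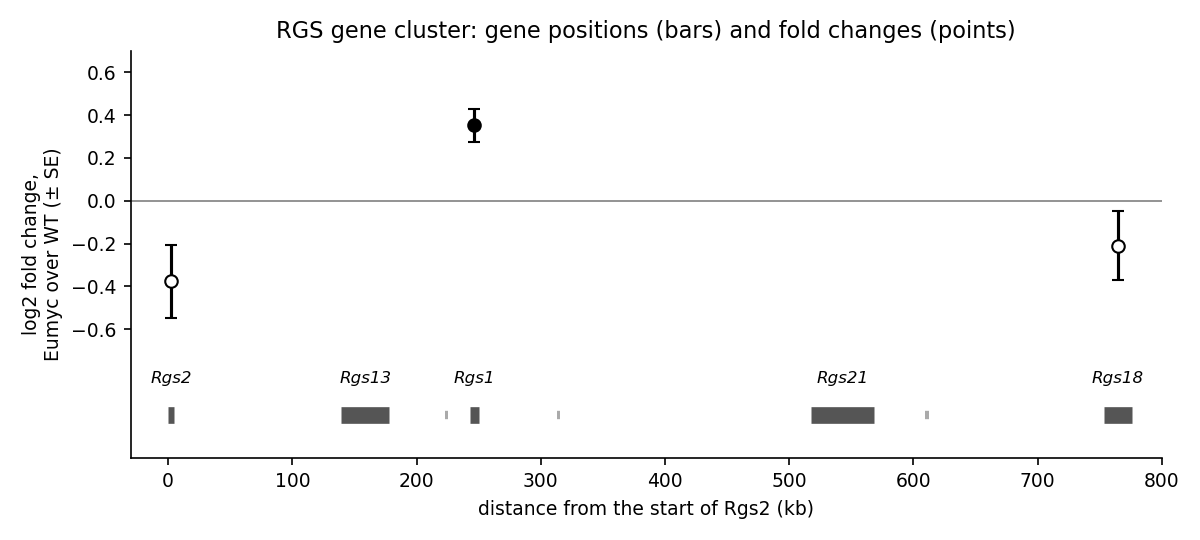
Positions of the genes between Rgs2 and Rgs18 (bars, distance from the start of Rgs2 in kb, thin bars for pseudogenes and a small nuclear RNA) and log2 fold changes of Eumyc over WT with SE for the 3 RGS genes of the cluster that were tested (points, filled where called). Rgs1 at 0.35 is above 0, and its neighbours Rgs2 at -0.38 and Rgs18 at -0.21 are below 0 and were not called.

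The other 4 genes are on separate chromosomes. Rgs3 (ENSMUSG00000059810) lies on chromosome 4 from 62559847 to 62704001, Rgs10 (ENSMUSG00000030844) on chromosome 7 from 128373621 to 128418758, Rgs14 (ENSMUSG00000052087) on chromosome 13 from 55369732 to 55384687 and Rgs19 (ENSMUSG00000002458) on chromosome 2 from 181688419 to 181693977. Annotated noncoding genes overlap 3 of the 8, and their counts were low. Gm11209, antisense to Rgs3, had 50 counts in WT and 81 in Eumyc, Gm28513, antisense to Rgs16, had 2 and 1, and Gm15503, on the strand of Rgs10, had 1 and 16. Without a stated strand setting, reads of a gene and its antisense partner cannot be told apart.

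G alpha subunits are the targets of RGS proteins. Of 9 tested genes 1 rose, 2 fell and 6 were not called, with a median log2 fold change of 0.01. The riser was Gnai2, which encodes the main Gi subunit of lymphocytes and went from 667 ± 30.4 to 922 ± 20.8 CPM (SD, n = 3 each), a log2 fold change of 0.47 ± 0.06 (SE, edgeR adjusted p = 0.000618). Gna11, a Gq family subunit, fell by 0.50 (SE 0.06) and Gnal, a relative of Gs, by 0.51 (SE 0.10) on the log2 scale. Of 11 tested beta and gamma subunit genes 4 rose and 0 fell, with a median of -0.03. Gnb1 and Gng2 rose by 0.27 ± 0.06 and 0.41 ± 0.08, and Gngt2 rose by 2.34 ± 0.33 (SE). Gngt2 was at 53.2 CPM in Eumyc 1 and at 21.3 and 29.8 CPM in Eumyc 2 and 3, the order of the monocyte and macrophage sums, and the part of those cells was not tested.

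Genes that end or shape the signal at other points were mixed. Receptor kinases and arrestins had 2 of 7 higher and 2 lower (median 0.02). Grk3, a receptor kinase recruited by beta-gamma, rose by 4.04 ± 0.32 (SE) from 3.71 ± 0.520 to 60.1 ± 26.5 CPM (SD, n = 3 each), again with Eumyc 1 the highest library at 90.4 CPM. Grk5 rose by 0.29 ± 0.06, and the arrestin gene Arrb2 fell by 0.27 (SE 0.08). Among other guanine nucleotide regulators of G alpha 1 of 5 rose and 3 fell (median -0.28). Gpsm2, a spindle orientation protein with GoLoco motifs, rose by 2.90 ± 0.45, while Gpsm1, with the same kind of motif, and Ric8a, a chaperone of G alpha, fell by 0.49 (SE 0.09) and 0.44 (SE 0.07). Gpsm2 was at 1.48, 2.22 and 6.47 CPM in WT 1, 2 and 3, so WT 3 stood apart from the other two.

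Effector genes had 1 of 13 higher and 5 lower, with a median of -0.12. Pik3r5, the regulatory subunit that couples PI3K gamma to beta-gamma, fell by 0.66 (SE 0.09), and the phospholipase C genes Plcb2 and Plcb4 fell by 0.48 (SE 0.07) and 0.37 (SE 0.10). The 1 riser, Pik3r6, the alternative regulatory subunit of PI3K gamma, was named after its values were seen and rose by 3.30 ± 0.27 from a low level, 0.943 ± 0.294 CPM, to 8.93 ± 1.82 CPM (SD, n = 3 each). Upstream, 8 of 19 trafficking receptor genes were higher and 6 lower (median 0.23). Gpr18, a receptor found on many lymphocytes, rose by 1.11 ± 0.09 (SE), and Cxcr4 and S1pr1, which guide retention and exit of lymphocytes, fell by 1.69 (SE 0.20) and 1.51 (SE 0.09).

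**Figure D5:**
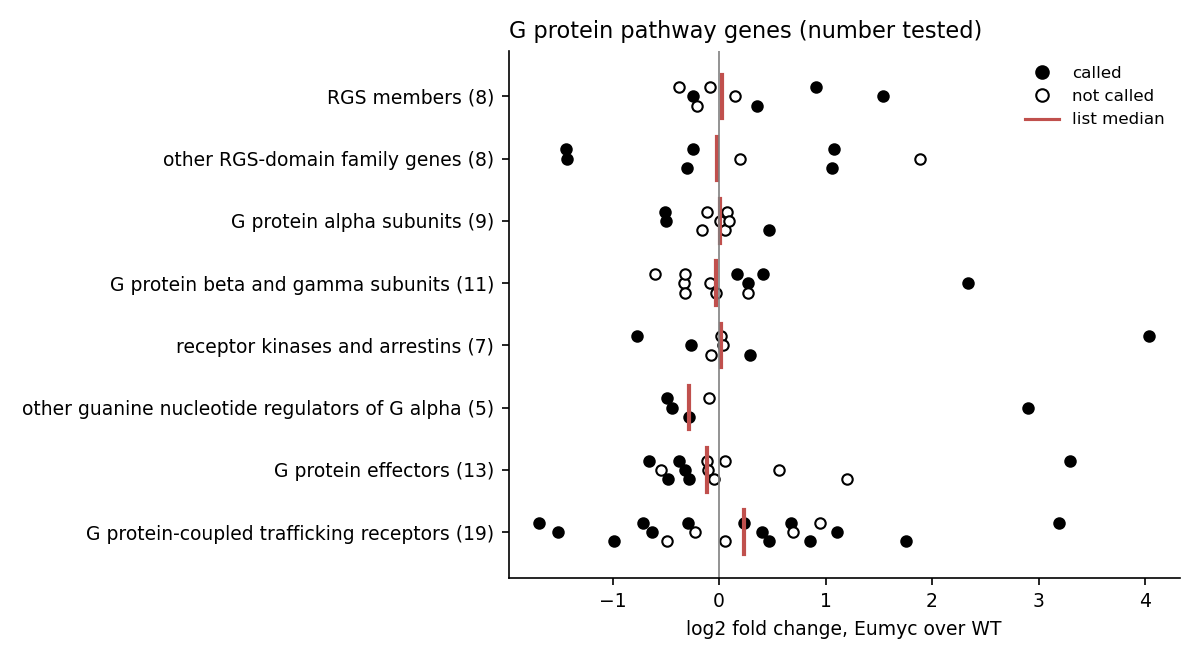
Log2 fold change of Eumyc over WT (horizontal axis) of each tested gene in 8 lists of the G protein pathway, filled where called, with each list's median as a vertical red line and the number tested in brackets. The medians lie between -0.28 and 0.23, and the 8 RGS genes span -0.38 to 1.54.

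Genes with the most similar profile over the 6 libraries were taken by the Euclidean distance of centred log2(CPM + 0.5) values, among tested protein-coding genes that averaged 10 CPM or more. For Rgs16 the 3 nearest were Alcam, Ptprj and Eno3, at distances of 0.314, 0.570 and 0.605 log2 units. For Rgs1 they were Ncaph2, Sod1 and Rnps1 (0.0336, 0.0537 and 0.0571), for Rgs10 Arf2, Susd3 and Arhgap39 (0.191, 0.319 and 0.363), and for Rgs14 Fxr2, Dopey2 and Gmpr2 (0.0278, 0.0533 and 0.0538). For Rgs2, whose Eumyc 1 value stood apart, Rap1gap2, Serpini1 and Ninj1 were nearest (0.251, 0.260 and 0.286). For Rgs3 they were Ino80e, Pdhb and Dmap1 (0.0472, 0.0532 and 0.0534), for Rgs18 Qpctl, Telo2 and Kctd3 (0.124, 0.126 and 0.141) and for Rgs19 Prkd2, Svil and Txndc11 (0.0499, 0.0697 and 0.0731). By construction, distances are small for genes that vary little, and the 6 points share the same libraries. Rgs16, Rgs10 and Rgs18 lay below the 10 CPM asked of their neighbours. The added 0.5 therefore shrinks their log2 differences more than those of the genes they are matched to.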

How the data were processed

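RNA from 6 samples was sequenced from Illumina TruSeq libraries, per the labels' protocols. The authors deposited whole-number counts per Ensembl gene. The submitters' processing notes list DESeq2 1.10.1, HTSeq 0.6.1 and STAR 2.5.2 beside the builds mm10 and GRCm38. The authors' deposited table holds 10292 of the 50686 genes, and its name mentions fpm3 and an FDR of 0.05, though it also lists genes above that FDR. How genes were left out, the annotation release and the strand setting are not stated there. The authors' deposited comparison table gave log2 fold changes, p-values and adjusted p-values.

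Counts were fitted with edgeR 4.0.16 (R 4.3.3) over all genes with filterByExpr at a minimum count of 10, TMM scaling and group as the only term. CPM values are TMM-scaled, and SE values come from the F statistic. The fit was tested on simulated data of 15458 genes, with a common dispersion for all genes. There edgeR recovered 32.8%, 88.1% and 97% of the 67, 67 and 66 genes changed 1.5-, 2- and 4-fold, and 5.84% of its calls were false. Far fewer genes were changed there than were called in the data, so these rates need not hold for the 8 genes. Exon lengths came from GENCODE M21, whose coordinates equalled those of the count table for all 8 genes. Figures were drawn with matplotlib 3.10.9. Alternatives were DESeq2 1.42.0, limma 3.58.1 voom, other scalings and filters, a replicate block, leaving out each library and, chosen after seeing the data, equal depth and another length. Equal depth was a single random draw of counts.

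Same-numbered samples deviated together across genes (r = 0.101, 0.241 and 0.333). The first is weak, near the 0.0698 of the unlike-numbered WT 1 and Eumyc 2. No label says what the numbers share, so whether they mark pairs is not settled. The main fit left them out, and the replicate block was run as an alternative. Genes named were chosen from all 8 members, up to 3 called genes with the largest log2 fold change and at least 10 CPM in the higher group from each pathway list, and the 3 nearest profiles of each member. Marker lists are given as sums with and without their most abundant gene. Elane, Siglech and Treml1, markers at 0 in WT, were named after their values were seen. So were Gzmb, Klrk1 and the T cell markers other than Trbc1 and Trbc2. The members and lists were chosen with earlier results of these data known. Libraries of a group differed by more than counting noise (chi-square over its degrees of freedom at least 8.46).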

Additional observations from a re-analysis of the deposited data

How the results depend on the processing

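Under the 15 alternatives for each gene, 0 of the 8 fold changes changed sign. Rgs16, Rgs1 and Rgs14 were called under all 15, with log2 fold changes of 1.31 to 1.78, 0.28 to 0.41 and -0.29 to -0.22. Rgs10 was called under 13 (0.70 to 1.2), Rgs2 under 2 (-0.58 to -0.22) and Rgs3 (-0.13 to -0.04), Rgs18 (-0.38 to -0.05) and Rgs19 (0.10 to 0.20) under 0. The count of RGS genes called lower was 2 in place of 1 with the replicate block, where Rgs2 passed, and between 1 and 2 when each library was left out in turn, with 2 without Eumyc 1. The block changed no other call among the 8. Rgs10 and Rgs16 rest on 26 to 95 counts per WT library. The cause of these changes was not tested.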
